A study of Homo sapiens with 12 samples.

Results

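Exosomes are small vesicles that cells release into their surroundings, and part of their cargo is microRNA (miRNA). A miRNA is a short RNA that, loaded into an Argonaute protein, pairs with messenger RNAs mainly through its seed, the stretch from base 2 to base 8, and lowers the output of those messengers. MiRNAs that share a seed form a family with overlapping targets. The comparison described here set exosomes of cisplatin-treated, sorted CSC-like cells (CSC, cancer stem cell) against exosomes of cisplatin-treated parental cells, 3 libraries each, which are 6 of the 12 libraries of the study. It addresses how the exosomal miRNAs of the 2 populations differ once both have met the drug.

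Both populations are MDA-MB-231, an established human breast adenocarcinoma line with a mesenchymal, invasive character. All 6 libraries came from cells given 56 µM cisplatin, a platinum drug that crosslinks DNA, for 48 h in medium whose serum had been cleared of exosomes. The other 6 libraries, from untreated parental and untreated sorted CSC-like cells, serve here only as background. How the CSC-like cells were sorted is not given in the sources used here, nor is it stated whether replicates were separate cultures, so the p-values measure the spread between libraries, which may be technical. Counts were deposited in 1 table per population, 137 miRNAs on the parental side and 114 on the CSC-like side, with 98 names on both. Every contrast of the populations therefore runs across the tables. A difference between populations cannot be told apart from one in sequencing run or handling between the tables. A miRNA is listed only if each of the 2 groups in its table holds at least 1 count, so one that a population lost or gained completely on treatment is not seen.

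The treated parental libraries held 6622, 3552 and 3924 listed counts and the treated CSC-like libraries 429, 1877 and 1575. The 98 shared miRNAs took between 98.8% and 99.7% of these. Replicate 1 stood apart in both groups. Its counts had a mean GC content of 49.8% in the parental group, against 44.3% and 44.0% in replicates 2 and 3, and of 53.3% in the CSC-like group, against 44.1% and 45.3%. Between CSC-like replicates 2 and 3 no difference beyond sampling noise was found over 37 miRNAs (chi-square of 42.5 on 36 degrees of freedom, or 1.18 per degree, p = 0.212), whereas each of them differed from replicate 1 (10.1 and 8.08 per degree). They therefore entered as 1 sample, giving 2 CSC-like and 3 parental samples. Parental replicates 2 and 3, which are deeper, were also much alike, at 1.48 per degree over 56 miRNAs (chi-square, p = 0.0123). Their pairs with parental replicate 1 gave 16.1 and 16.4 per degree. This pair was kept as 2 samples, so the 3 parental samples may be less independent than their number implies. With 56 of the 98 shared miRNAs below the count filter, 42 were tested, and these took between 93.2% and 97.1% of the shared counts.

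The sequences on which the comparison turns are shown first, from 5′ to 3′ with the seed in capitals. They are miR-3135b, the single miRNA past the threshold, with the first bases of the Y3 RNA gene RNY3 below it, then the pair miR-221-3p and miR-222-3p, then the tested let-7 members, and last miR-21-5p and miR-100-5p, which led every treated library. MiRNA sequences are RefSeq's (GRCh38.p14), where 84 of the 98 shared names were found, all 84 with the sequence deposited by the authors. The RNY3 bases are from GENCODE 29 and are written with T, and their capitals mark the same positions.
miR-3135b: gGCUGGAGcgagugcaguggug
RNY3, first bases: gGCTGGTCcgagtgcagtggtg
miR-221-3p: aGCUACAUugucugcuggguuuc
miR-222-3p: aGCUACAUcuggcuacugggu
let-7a-5p: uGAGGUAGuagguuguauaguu
let-7b-5p: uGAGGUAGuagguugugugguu
let-7f-5p: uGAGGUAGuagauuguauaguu
let-7g-5p: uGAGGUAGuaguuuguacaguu
let-7i-5p: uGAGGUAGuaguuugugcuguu
miR-21-5p: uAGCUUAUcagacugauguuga
miR-100-5p: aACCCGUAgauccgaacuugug

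With U read as T and bases counted from 1 at the 5′ end, miR-3135b differs from the first 22 bases of RNY3 by A7T and G8C, both inside the seed. Among the let-7 members, all of one seed, let-7a-5p differs from let-7f-5p by G12A alone and from let-7b-5p by A17G and A19G. The number of mismatches the authors' alignment allowed is not given, so counts of such near-identical sequences may have been divided between them.

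A single miRNA, miR-3135b, was higher in treated CSC-like than in treated parental exosomes past the threshold, and none was lower. It was counted 6, 6 and 5 times in the parental libraries, or 0.0906%, 0.169% and 0.127% of listed counts. In the CSC-like libraries it was counted 27, 79 and 76 times, or 6.29% (exact 95% interval 4.19 to 9.03), 4.21% (3.35 to 5.22) and 4.83% (3.82 to 6.003). Every CSC-like library lay far above every parental one, also in the shallow replicate 1. By count miR-3135b ranked 4 in all 3 CSC-like libraries and 53, 48 and 51 in the parental ones. The group means were 0.129% ± 0.0392 (SD, n = 3) and 5.41% ± 1.26 (SD, n = 2), a ratio of 41.9.

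For miR-3135b the fitted log2 fold change was 5.45 (SE 0.89, 95% interval 3.55 to 7.34), with an adjusted p of 0.000617 from edgeR's quasi-likelihood test and both CSC-like samples above all parental ones. Calls made up 2.38% of the 42 tested miRNAs, that is, this miRNA alone. It entered the test through the CSC-like samples only, as its share in every parental library was below the filter's cutoff. That cutoff is the share that 10 counts make up in a library of median size, so a shallow library passes on fewer counts. Among the alternative fits below, the one with no low-count filter gave it a log2 fold change of 5.13 (edgeR adjusted p = 1.6e-06). Of the alternatives that did not take CSC-like replicates 2 and 3 as separate samples, 12 had 2 CSC-like samples, the no-filter fit included. miR-3135b was called in each of these 12, with log2 fold changes from 5.12 to 5.59. The edgeR or DESeq2 adjusted p lay between 2.87e-11 and 0.0184. In another alternative, without CSC-like replicate 1, the pooled pair is the only CSC-like sample and the parental libraries alone give the spread. A further 1 miRNA, miR-221-3p, had an unadjusted p under 0.05, so that 4.76% of the tested miRNAs were under it.

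Ratios inside a library need no library size, and they show the same contrast. For each 100 counts of miR-21-5p there were 0.317, 0.497 and 0.385 counts of miR-3135b in treated parental replicates 1 to 3, and 26.0, 10.9 and 13.5 in the treated CSC-like ones. Against 100 counts of miR-100-5p the parental values were 0.420, 1.06 and 0.776 and the CSC-like values 33.3, 26.3 and 29.6. Both denominators gave separate groups. On the second ratio the 3 CSC-like libraries lay close together, replicate 1 included.

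**Figure D1:**
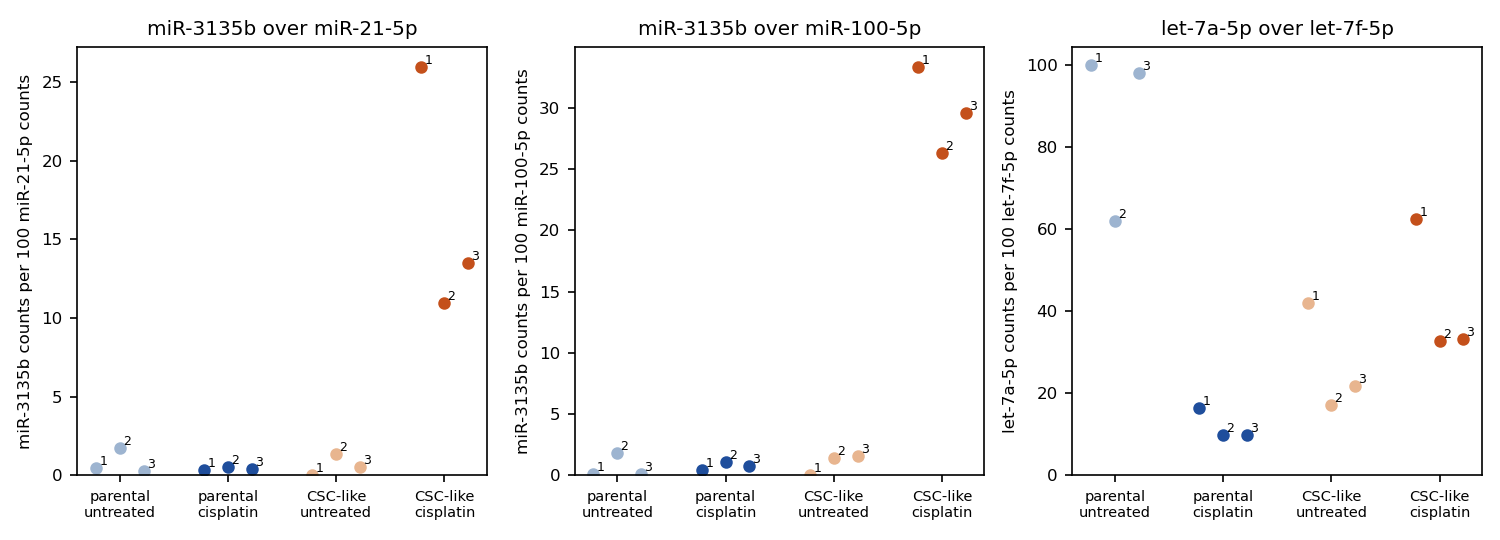
Counts of miR-3135b per 100 counts of miR-21-5p (left) and of miR-100-5p (middle), and of let-7a-5p per 100 of let-7f-5p (right), in each of the 12 libraries. Points are libraries labelled by replicate number, axes are linear and start at 0. In the left and middle panels the treated CSC-like libraries lie at 10.9 to 26.0 and at 26.3 to 33.3, above all the others.

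The miR-3135b locus, MIR3135B, lies on the minus strand at chr6:32749952-32749973 in GRCh38, outside other genes annotated in GENCODE 29. RNY3 is on chromosome 7 (148983755 to 148983856). The untreated libraries held 1, 10 and 1 counts of miR-3135b in parental and 0, 7 and 5 in CSC-like exosomes, too few for that pair of groups to pass the filter. The 0 in 1526 counts allows a share of up to 0.197% (the floor of 3 counts). A test of the difference between the differences, as an interaction term over all 4 groups, gave 5.09 on the log2 scale (SE 1.49, adjusted p = 0.0358, edgeR). That call was 1 of 48, or 2.08%. It passed in 6 of 16 other fits, with differences from 2.88 to 5.58 and adjusted p from 0.00787 to 0.465. The lowest value came without untreated parental replicate 2, which holds 10 of the untreated parental counts of miR-3135b. Leaving out treated CSC-like replicate 1 or 3, or any 1 of the treated parental or untreated CSC-like libraries, also ended the call, with differences from 4.38 to 5.55.

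miR-221-3p had the next highest fold. It is a miRNA often abundant in invasive, mesenchymal breast cancer cells and known to repress the cell cycle inhibitor p27. The treated parental libraries held 40, 40 and 22 counts, or 0.604%, 1.13% and 0.561%. The treated CSC-like libraries held 20, 32 and 36 counts, or 4.66% (exact 95% interval 2.87 to 7.11), 1.70% (1.17 to 2.40) and 2.29% (1.61 to 3.15). All 3 CSC-like values exceeded all 3 parental ones, and replicate 1 of the CSC-like group was the highest by a wide margin. The means were 0.764% ± 0.315 (SD, n = 3) and 3.33% ± 1.89 (SD, n = 2). Its log2 fold change of 2.09 (SE 0.80, 95% interval 0.40 to 3.78) did not pass after adjustment over all tested miRNAs (edgeR, adjusted p = 0.392).

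miR-222-3p is encoded next to miR-221-3p on the X chromosome, both inside the non-coding gene MIR222HG (chrX:45746180-45746202 for miR-221-3p and chrX:45747036-45747056 for miR-222-3p), and shares its seed. It was too rare to be tested, with 3, 2 and 8 counts in the parental and 3, 4 and 5 in the CSC-like libraries. As a share, the seed pair stood at 0.649%, 1.18% and 0.765% in parental and at 5.36%, 1.92% and 2.60% in CSC-like libraries, again with no overlap. In untreated exosomes miR-221-3p stood at 0.925% ± 0.376 in parental and 1.05% ± 0.189 in CSC-like cells (SD, n = 3 each). The difference between the treated and the untreated contrast was 2.54 on the log2 scale (SE 1.51) and did not pass (edgeR interaction term, adjusted p = 0.604).

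**Figure D2:**
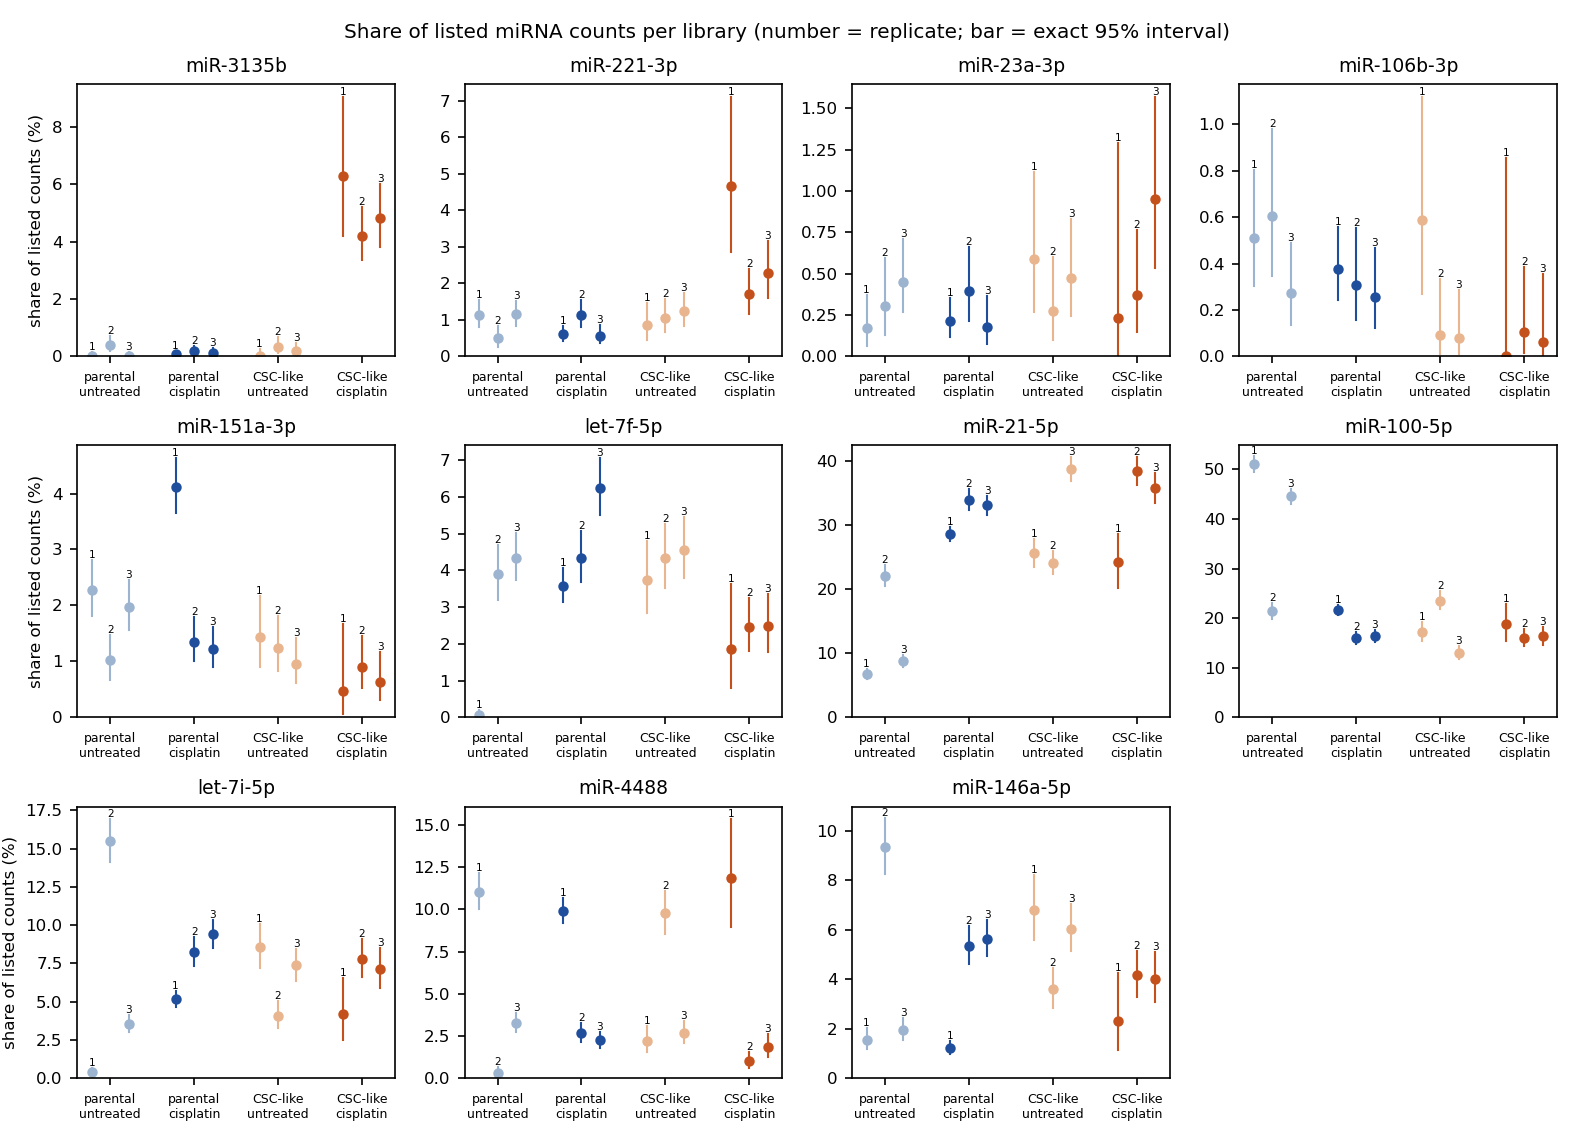
Share of listed counts (%) for each of the 11 miRNAs described in full, by group on the x axis and with a linear y axis from 0. Points are libraries labelled by replicate number, and bars are exact 95% intervals that cover counting error only. All 3 treated CSC-like libraries lie above the treated parental ones for miR-3135b and miR-221-3p, and below them for let-7f-5p, miR-106b-3p and miR-151a-3p. Of all 42 tested miRNAs, 4 were separated in this way as higher and 5 as lower. miR-4488 is high in replicate 1 of both treated groups.

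The let-7 family, known for repressing RAS, HMGA2 and other growth genes and for low activity in stem-like cells, had 5 tested members. None passed in either direction, the median log2 fold change was -0.21 beside 0.08 over all 42 tested miRNAs, and 2 members had fitted values above 0 and 3 below. The whole family took 10.2%, 17.1% and 19.5% of counts in the treated parental libraries and 8.86%, 13.2% and 12.6% in the treated CSC-like ones. These ranges overlapped.

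Family members of near-identical sequence did not all lie on the same side. let-7f-5p stood at 3.58%, 4.34% and 6.24% in parental and at 1.86%, 2.45% and 2.48% in CSC-like libraries, with every CSC-like value below every parental one. Its log2 fold change was -0.96 (SE 0.78, 95% interval -2.61 to 0.69), short of the threshold at an edgeR adjusted p of 0.824. let-7a-5p stood at 0.589%, 0.422% and 0.612% in parental against 1.17%, 0.799% and 0.825% in CSC-like libraries, with every CSC-like value above (log2 fold change 0.93, SE 0.64). let-7b-5p behaved alike, at 0.393%, 0.282% and 0.306% against 0.466%, 0.479% and 0.635% (0.87, SE 0.61). Neither passed, and the let-7b-5p value of CSC-like replicate 1 rests on 2 counts.

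The ratio of let-7a-5p to let-7f-5p was singled out after its values were seen and was not tested. For each 100 counts of let-7f-5p there were 16.5, 9.74 and 9.80 counts of let-7a-5p in the treated parental libraries and 62.5, 32.6 and 33.3 in the treated CSC-like ones. The first CSC-like value rests on 5 and 8 counts. Each CSC-like library was above each parental one. Untreated parental replicates 2 and 3 held 62.1 and 98.3 per 100, while replicate 1 held only 2 counts of each, too few for a ratio. Untreated CSC-like libraries held 42.1, 17.0 and 21.7, so the order of the populations was the other way round without cisplatin. let-7a-5p is encoded at 3 loci and let-7f-5p at 2, whose counts cannot be told apart.

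The other tested members, let-7i-5p and let-7g-5p, overlapped between the groups. let-7i-5p, the most abundant member, stood at 5.16%, 8.25% and 9.40% in parental and 4.20%, 7.78% and 7.11% in CSC-like libraries (log2 fold change -0.21, SE 0.63). let-7g-5p ranged from 0.423% to 3.66% in parental and from 0.932% to 1.40% in CSC-like libraries (-0.78, SE 0.98).

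The most abundant pair, miR-21-5p and miR-100-5p, did not pass the test between the treated groups and had the 2 narrowest intervals. miR-21-5p, which represses the tumour suppressor PDCD4, made up 28.6%, 34.0% and 33.1% of parental and 24.2%, 38.5% and 35.8% of CSC-like counts. Its log2 fold change of 0.10 had a 95% interval from -0.58 to 0.77. miR-100-5p, a regulator of mTOR, made up 21.6%, 15.99% and 16.4% against 18.9%, 15.98% and 16.3%, with a log2 fold change of 0.07 (95% interval -0.71 to 0.84). Both signs turn negative when library totals replace the trimmed mean of M-values (TMM) scaling. The intervals bound either difference to under 2-fold, in the design of 3 samples against 2.

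Without cisplatin the same pair showed other values: miR-21-5p took 12.5% ± 8.38 of parental and 29.5% ± 8.06 of CSC-like counts, and miR-100-5p 39.0% ± 15.6 and 17.9% ± 5.28 (SD, n = 3 each). For miR-100-5p the treated contrast minus the untreated one was 1.86 on the log2 scale (SE 0.76) and did not pass (edgeR interaction term, adjusted p = 0.184). For miR-21-5p it was -0.99 (SE 0.82, adjusted p = 0.836). miR-30b-5p was the only call in the comparison of both untreated groups (3.33% of 30 tested). It was counted 1, 1 and 3 times in untreated parental and 7, 29 and 18 times in untreated CSC-like libraries. It thus passed the filter of that comparison through the CSC-like group alone, where it is high. With cisplatin it stood at 0.287%, 0.591% and 0.535% in parental and 0.699%, 0.639% and 0.317% in CSC-like libraries. The treated log2 fold change was 0.39 (SE 0.66) against 3.50 (SE 0.86) in untreated exosomes, and the difference between these did not pass (-3.16, SE 1.23, adjusted p = 0.166, edgeR). With library totals in place of TMM that difference was -3.74 and passed (adjusted p = 0.028, edgeR). It also passed with 3 separate libraries per group (-3.62, adjusted p = 0.0369, edgeR), a fit that splits the pooled CSC-like pair. None of the other alternatives passed, among them DESeq2 size factors (-3.31, adjusted p = 0.089, edgeR) and the replicate block (-3.565, adjusted p = 0.0529, edgeR).

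**Figure D3:**
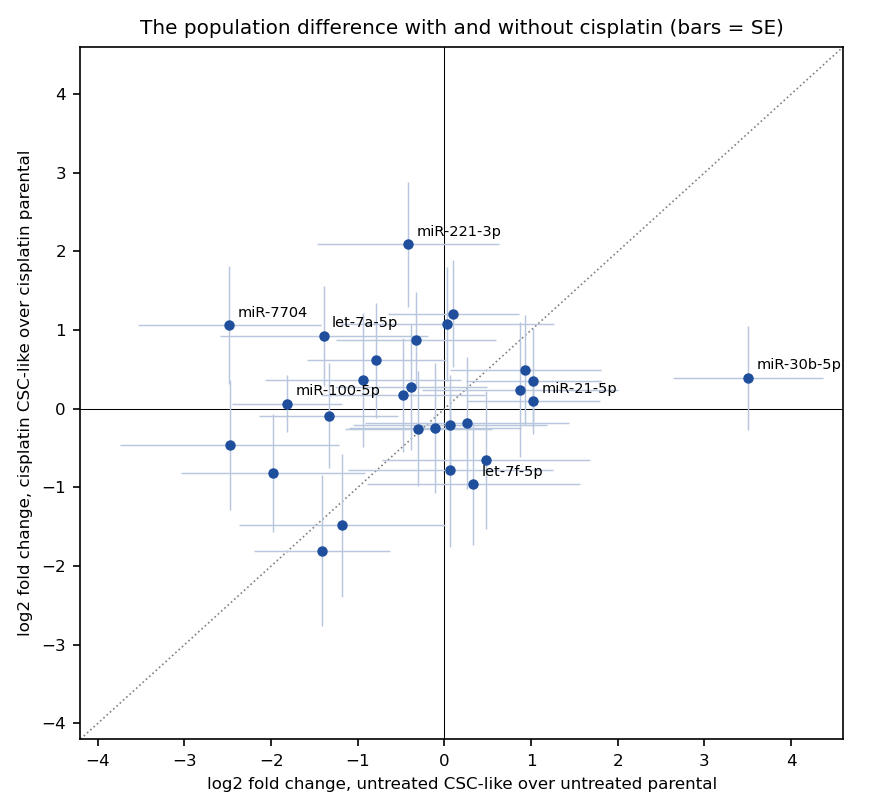
Log2 fold change of CSC-like over parental exosomes with cisplatin (y axis) against that without it (x axis), for the 28 miRNAs tested in both, with standard errors as bars and a dotted line of equality. 14 of the 28 have the same sign on both axes, and miR-30b-5p lies far to the right at a treated value of 0.39. miR-3135b is not drawn, since it was not tested without cisplatin.

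Among the rest, the lowest fitted fold was that of miR-106b-3p, from the miR-106b-25 cluster in an intron of the replication gene MCM7. It was counted 25, 11 and 10 times in parental and 0, 2 and 1 times in CSC-like libraries, or 0.378%, 0.310% and 0.255% against 0%, 0.107% and 0.0635%. The 0 in 429 counts allows up to 0.699% (the floor of 3 counts), so that library alone cannot place it below the parental ones. The fitted log2 difference was -1.80 with an SE of 0.96 (edgeR adjusted p = 0.742). The cluster's listed members together, miR-106b-3p, miR-93-5p and miR-25-3p, took 0.574%, 0.704% and 0.663% of parental and 0%, 0.479% and 0.127% of CSC-like counts, a sum chosen after its values were seen.

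miR-151a-3p, encoded with the focal adhesion kinase gene PTK2, stood at 4.12%, 1.35% and 1.22% in parental and 0.466%, 0.906% and 0.635% in CSC-like libraries. Parental replicate 1 was far above the other 2, and all CSC-like libraries were below the parental range. Its fitted log2 difference was -1.48 with an SE of 0.91 (edgeR adjusted p = 0.742), and -0.83 without parental replicate 1. miR-23a-3p was the third highest by fitted fold, at 1.21 on the log2 scale with an SE of 0.68 (edgeR adjusted p = 0.742). Its shares were 0.211%, 0.394% and 0.178% against 0.233%, 0.373% and 0.952%. The groups overlapped, and CSC-like replicate 3 was the highest of the 6, without which the value was 0.39.

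**Figure D4:**
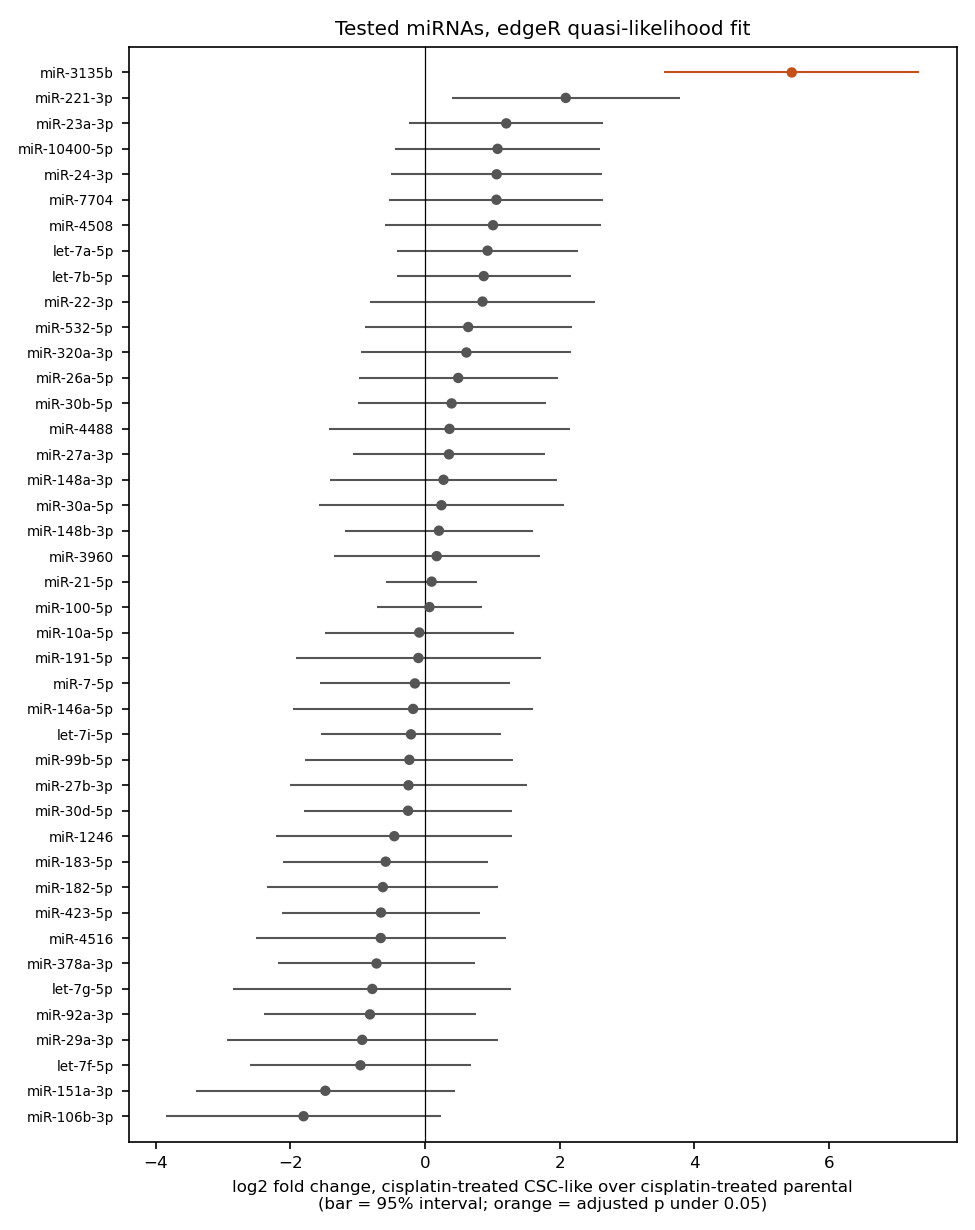
Log2 fold changes of the 42 tested miRNAs, treated CSC-like over treated parental, with 95% intervals from the edgeR fit, ordered by size. The interval of miR-3135b (3.55 to 7.34) is the only one in the colour of calls, that of miR-221-3p (0.40 to 3.78) also lies above 0, and the others include 0.

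Over all 42 tested miRNAs, 22 had fitted values above 0 and 20 below, and 33 were within 1 of 0 on the log2 scale. The half-width of the 95% interval had a median of 1.57 and ranged from 0.67 to 2.07, so for most miRNAs a difference of 2-fold was not detectable at this depth and number of samples. For 10 miRNAs, 23.8% of those tested, no CSC-like sample lay within the parental range. Besides those above, these were miR-92a-3p (parental 0.710% to 1.35%, CSC-like 0.466% to 0.508%), miR-378a-3p (0.591% to 1.04% against 0.373% to 0.466%) and miR-10a-5p, all lower in CSC-like samples. In total 4 were higher and 6 lower, and 4 and 5 when all 3 CSC-like libraries were taken singly, since miR-10a-5p then overlapped. In CSC-like replicate 1 miR-92a-3p and miR-378a-3p rest on 2 counts each and miR-10a-5p on 1.

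The lists of related miRNAs gave the following counts, none of them with a call except the list that holds miR-3135b. The miR-30 family, known to favour an epithelial over a mesenchymal state, had 3 tested members, 2 fitted above 0 and 1 below (median 0.24, or -0.02 with library totals). It took 2.67% ± 0.283 of parental (SD, n = 3) and 2.25% ± 1.86 of CSC-like counts (SD, n = 2). Its main member miR-30a-5p stood at 1.92%, 1.21% and 1.25% in parental libraries and at 0.233%, 1.92% and 2.67% in CSC-like ones, the first of these on 1 count. The miR-23/27/24 clusters, with targets in differentiation and lipid metabolism, had 4 tested members, 3 above 0 (median 0.71), and shares of 2.45% ± 0.833 and 2.37% ± 1.05. Members of the miR-17-92, miR-106a-363 and miR-106b-25 clusters, a growth-promoting group induced by MYC, had 2 tested members, both below 0 (miR-106b-3p and miR-92a-3p), and shares of 1.81% ± 0.537 and 1.05% ± 0.166.

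Further lists were small. Of the miRNAs known to restrain breast stem cells, which include the miR-200 family and the miR-183 cluster, 2 of 13 were tested, miR-183-5p (-0.58) and miR-182-5p (-0.63). The list took 1.33% ± 0.442 of parental and 0.799% ± 0.471 of CSC-like counts, and the libraries overlapped. They stood at 1.83%, 0.985% and 1.17% in parental and at 0.466%, 1.44% and 0.825% in CSC-like exosomes, the 0.466% on 2 counts. Both tested members also belong to the growth- and invasion-associated list. Together the families of miR-99, miR-100 and miR-125 took 18.5% ± 3.27 and 18.2% ± 2.35. The growth- and invasion-associated miRNAs, mostly miR-21-5p, stood at 33.9% ± 2.57 and 35.1% ± 7.12. miR-7-5p, which represses the EGF receptor, had a log2 fold change of -0.15 and miR-22-3p one of 0.85, neither past the threshold.

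GC-rich entries and entries that overlap structured RNAs, a list chosen with earlier results known, had 8 tested members, of which miR-3135b rose and 6 in all had fitted values above 0 (median 0.69). The largest was miR-4488, a GC-rich 18-base entry, at 9.92%, 2.67% and 2.24% in parental and 11.9%, 1.012% and 1.84% in CSC-like libraries. Replicate 1 was the high one in both groups, and the log2 fold change of 0.36 (SE 0.85) turned to -1.51 without CSC-like replicate 1. Leaving out miR-3135b, the list took 16.5%, 5.60% and 5.94% of parental and 19.8%, 3.41% and 4.25% of CSC-like counts. In the same CSC-like libraries miR-3135b stood at 6.29%, 4.21% and 4.83%, and the part of the other entries in its difference was not tested.

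**Figure D5:**
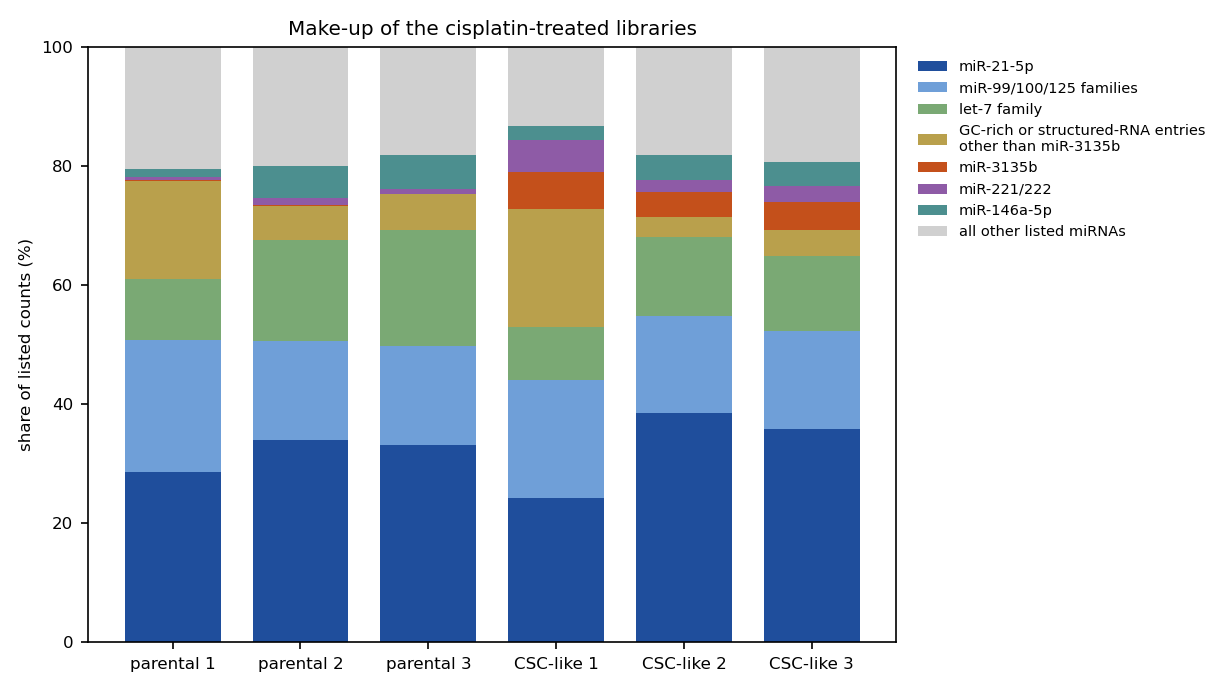
Stacked shares (%) of listed counts in the 6 cisplatin-treated libraries, by miRNA group. Replicate 1 of both populations carries more of the GC-rich or structured-RNA entries (16.5% and 19.8%) than the other replicates (3.41% to 5.94%), and the miR-3135b segment is a thin line in the parental libraries (0.0906% to 0.169%) and 4.21% to 6.29% in the CSC-like ones.

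miR-146a-5p, a feedback inhibitor of NF-kB signalling, showed the reverse of that replicate pattern. It stood at 1.22%, 5.35% and 5.63% in parental and 2.33%, 4.16% and 4% in CSC-like libraries, lowest in replicate 1 of each group (log2 fold change -0.18, SE 0.84). Restricting the comparison to replicates 2 and 3 of each group, as separate libraries, called 8 of 32 tested miRNAs (25%): miR-3135b, miR-221-3p, miR-30a-5p, miR-148a-3p and miR-21-5p as higher in CSC-like exosomes, and let-7f-5p, let-7g-5p and miR-4516 as lower. In that restricted fit miR-221-3p had a log2 fold change of 1.30 (adjusted p = 0.00334, edgeR) and let-7f-5p of -1.04 (adjusted p = 0.000162). Since no difference beyond sampling noise was found between its 2 CSC-like libraries, those calls compare libraries rather than the populations.

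Markers of other sources were scarce in both treated groups. Blood cell and serum miRNAs, 9 in the list and 3 listed in each table, summed to between 0.0302% and 0.366% in parental and between 0.0635% and 0.466% in CSC-like libraries. miR-451a, a red blood cell miRNA, is listed only for CSC-like exosomes (0, 1 and 0 counts in the treated libraries) and miR-122-5p only for parental ones (2, 3 and 3). miR-486-5p had 0, 3 and 2 counts in treated parental and 0, 1 and 0 in treated CSC-like libraries. miR-126-3p had 0, 7 and 2 against 2, 0 and 1. Epithelial miRNAs were represented by miR-200b-3p and miR-429, which summed to between 0.0604% and 0.225% in parental and between 0.0635% and 0.373% in CSC-like libraries. The miRNAs of pluripotent stem cells (the miR-302 and miR-371 clusters) and of muscle and neurons are not in either table. Fewer vesicles with a miRNA and less of it per vesicle cannot be told apart in these bulk libraries.

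The shallowest library, CSC-like replicate 1, had counts for 56 of the 98 shared miRNAs, against 80 and 74 in its replicates 2 and 3 and 81, 88 and 88 in the parental libraries. Thinned to the 424 shared counts of that library, the expected numbers were 51.4 and 49.3 for CSC-like replicates 2 and 3 and 45.3, 52.6 and 49.7 for the parental libraries. Of the miRNAs listed in 1 table only, the most abundant were miR-28-3p in treated parental exosomes (22, 5 and 2 counts) and miR-378i in treated CSC-like exosomes (0, 3 and 2 counts). These 39 parental and 16 CSC-like entries took at most 1.18% and 1.17% of a treated library, and no comparison was made for them.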

How the data were processed

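Small RNA of MDA-MB-231 exosomes was sequenced in 12 libraries. Per the labels' protocols, an exosome RNA kit and a multiplex small RNA library kit were used, and cutadapt and FastQC appear in the submitters' processing notes. Not given in the sources used here are the aligner, the genome build and the miRNA release. The authors deposited raw read counts per mature miRNA, untransformed per the file headers. The deposited fold-change score and unadjusted p-value of Baggerley's test were not used. A line of each file is not analysed here.

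Treated CSC-like counts were set against treated parental counts on the shared names. Library size was the sum of all listed counts of the column in its own table. Replicate pairs were compared by chi-square, using miRNAs whose 2 counts summed to 10 or more. Pooling was applied to CSC-like replicates 2 and 3, whose means and SDs use the pair's mean share. The test was edgeR's (edgeR 4.0.16 with limma 3.58.1 under R 4.3.3), with filterByExpr (minimum count 10, total 15), TMM, quasi-likelihood test, Benjamini-Hochberg adjustment, threshold 0.05. The fitted fold weights samples by depth and uses TMM scaling, so it can differ in sign from the ratio of mean shares. Standard errors come from the fold change and F. Size factors of DESeq2 1.42.0 were an alternative scaling. The interaction term was fitted over all 4 groups, and the untreated contrast on its own groups. Exact (Clopper-Pearson) intervals and floors (3 counts) hold for counting error only, as the labels mention no molecular identifiers. Locations use GRCh38 (RefSeq p14 and GENCODE 29).

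Fully described were miRNAs past the threshold or with an unadjusted p under 0.05, the 5 most abundant in the treated libraries, and the 3 highest and 3 lowest folds. Other tested list members are given by their fold. The members and lists were chosen with earlier results of these data known.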

Additional observations from a re-analysis of the deposited data

Results flagged for a closer look

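A test of whether the difference between CSC-like and parental exosomes depends on cisplatin passed for miR-3135b: the contrast with the drug exceeded that without it by 5.09 on the log2 scale (SE 1.49, adjusted p = 0.0358, edgeR interaction term), with 5.41% ± 1.26 (SD, n = 2) against 0.129% ± 0.0392 of counts in treated and 0.174% ± 0.163 against 0.144% ± 0.203 in untreated exosomes (SD, n = 3 each).
The call was lost in 10 of 16 alternatives, among them the replicate block (4.78, adjusted p = 0.0529, edgeR) and the fit without untreated parental replicate 2 (2.88, adjusted p = 0.465, edgeR).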

How the results depend on the processing

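The call of miR-3135b between the treated groups held under 17 alternatives, 4 of which take CSC-like replicates 2 and 3 as separate samples though no difference beyond sampling noise was found between them. With 1 library left out it ranged from 5.12 to 5.59, always as 1 call. Without CSC-like replicate 1 a single CSC-like sample is left, assumed to vary like the parental ones. Of 181 refitted values of the 11 fully described miRNAs, 149 kept direction and side of the threshold, 28 turned sign and 4 passed newly. For the other results the cause of a change was not tested. Replicate numbers did not pair the samples throughout: same-number correlations of deviations were 0.293, 0.148 and 0.0972. Replicate 1 of each group correlated best with replicate 1 of the other. Parental replicate 1 correlated at -0.261 and -0.239 with CSC-like replicates 2 and 3, and CSC-like replicate 1 at -0.26 and -0.239 with parental replicates 2 and 3. The deviations of a group sum to 0, so these negative values are not separate evidence of a match. Treated replicates 2 and 3 of one group correlated best with number 3 and 2 of the other. The replicate block, on 3 separate libraries per group, left 1 call (miR-3135b 5.23, adjusted p = 3.94e-07, edgeR) and gave miR-21-5p -0.047, miR-100-5p -0.14 and miR-4488 -0.51. Separate libraries with no block gave -0.026, -0.14 and -0.14 for these 3, and no filter gave -0.17, -0.31 and -0.31. miR-21-5p and miR-100-5p were -0.049 and -0.042 with library totals, -0.10 and -0.15 with at least 15 counts, and -0.084 and -0.088 in a model over 4 groups. Added after seeing the data, dropping CSC-like replicate 1 with its others separate gave 2 calls (miR-3135b and miR-21-5p at 0.34, adjusted p = 0.00161, edgeR), and turned miR-100-5p to -0.059, let-7i-5p to 0.10, miR-4488 to -1.75 and miR-146a-5p to 0.17. Replicates 2 and 3 alone, also added then, gave 8 calls and miR-4488 at -0.75. With 1 library left out, miR-21-5p ranged from -0.10 to 0.51, miR-100-5p from -0.10 to 0.14, let-7i-5p from -0.52 to 0.25, miR-4488 from -1.51 to 1.25 and miR-146a-5p from -0.68 to 0.27. The interaction made 2 calls with library totals and with separate libraries (miR-3135b and miR-30b-5p in both), 0 with the block and 0 to 1 with a library left out. Its values then ranged from -1.83 to 0.53 for let-7i-5p, -1.76 to 2.29 for miR-4488, -1.59 to 0.10 for miR-146a-5p, -1.11 to 0.39 for miR-151a-3p, -0.95 to 0.40 for miR-106b-3p and -0.013 to 1.52 for miR-23a-3p, and miR-4488 was -1.11 with the block. Differences in the share of 7 lists turned sign in 8 of 56 refits, affecting 5 lists: the GC-rich entries went from 7.77 to -1.11 percentage points without CSC-like replicate 1, which also turned the miR-30 family from -0.418 to 0.896 and the miR-23/27/24 clusters from -0.0767 to 0.666. Those of miR-3135b and miR-221-3p kept their sign in 16 of 16. CSC-like replicate 1 holds only 429 counts.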

Other observations

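Several smaller families had no call between the treated exosomes. The miR-148 family, which represses the DNA methyltransferase gene DNMT1, took 1.51% ± 0.425 of parental (SD, n = 3) and 1.28% ± 1.15 of CSC-like counts (SD, n = 2), with log2 fold changes of 0.27 for miR-148a-3p and 0.21 for miR-148b-3p. miR-29a-3p, of a family that represses collagen genes, was fitted at -0.93 and miR-26a-5p, a repressor of EZH2, at 0.49. The miR-181 family took 0.232% ± 0.147 and 0.491% ± 0.295, the miR-15/16 family, which restrains BCL2, 0.144% ± 0.0984 and 0.143% ± 0.127, and the p53-responsive miRNAs 0.0842% ± 0.101 and 0.0533% ± 0.0753, with no tested member in these 3.

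Within the GC-rich and structured-RNA entries, miR-10400-5p (1.08), miR-7704 (1.06), miR-4508 (1.0098) and miR-3960 (0.17) had fitted log2 fold changes above 0, and miR-4516 (-0.66) and miR-1246 (-0.46) below. For miR-7704 the untreated contrast was -2.48, and its difference from the treated one was 3.70 (SE 1.34, adjusted p = 0.142, edgeR interaction term).

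Among miRNAs listed for parental exosomes alone, the treated libraries summed to 29 counts of miR-28-3p, 12 of miR-99b-3p, 8 each of miR-122-5p and miR-30e-3p, and 7 of miR-210-3p, which is induced by hypoxia. On the CSC-like side they summed to 5 of miR-378i, 3 each of miR-30a-3p and miR-629-5p, and 2 each of miR-218-5p and miR-589-5p.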
